A study of Mus musculus with 4 samples.

Results

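The proteasome genes of mouse dendritic cells were compared between an immune set, the catalytic subunits Psmb8, Psmb9 and Psmb10 and the activator subunits Psme1 and Psme2, and the other genes of the complex. Members were all genes whose symbol starts with Psm, then a letter from a to g, then a number. By this rule 50 of 19938 named genes were members, 5 in the immune set and 45 others. Symbols of the pattern numbered 51 in the array annotation, and 1 of them, Psme2b, was found only on a probe set that it shares with Psme2. Psmc3ip and Psme3ip1 matched by name alone, as partners of proteasome proteins that are not subunits. Each gene was read at its brightest probe set, averaged over the arrays, among those that carry its symbol alone.

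Total RNA of dendritic cells grown from bone marrow was measured on 4 arrays, 1 for each group, so 2 arrays set against each other give a value without replication and without a p-value. The groups were NR4A3 siRNA with LPS, control siRNA with LPS, NR4A3 siRNA unstimulated and control siRNA unstimulated. NR4A3 is an orphan nuclear receptor that binds DNA as a transcription factor, and LPS is the bacterial lipopolysaccharide sensed through the receptor TLR4. All groups shared culture with GM-CSF at 20 ng/mL and delivery of siRNA by nucleofection on day 10. LPS at 100 ng/mL followed 24 hours later, and cells were harvested 24 hours after it. The labels name BALB/c mice in the growth protocol and C57BL/6 mice among the sample characteristics. They do not say whether animals were pooled or whether the 4 cultures were separate.

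The proteasome is the main protease of the cytosol and nucleus. Its 20S core is a barrel of alpha and beta rings, with the cutting sites on beta subunits inside, and the 19S cap binds ubiquitin-tagged proteins, unfolds them and feeds them into the core. Interferon and inflammatory signals make cells replace the standard catalytic subunits by Psmb8, Psmb9 and Psmb10 in newly built cores, and raise the PA28 activator made of Psme1 and Psme2. Such immunoproteasomes are known in dendritic cells for making peptides that fit MHC class I molecules.

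Array medians (log2) ran from 6.37 to 6.42, and values of single probe sets from 4.21 to 14.27. The number of arrays, not a read depth, limits the precision. Nr4a3 was listed at 9.39 with NR4A3 siRNA and LPS, 11.77 with control siRNA and LPS, 7.15 with NR4A3 siRNA unstimulated and 11.21 with control siRNA unstimulated. The targeted transcript was therefore lower with its siRNA in both states. A gene entered the counts when at least 1 array reached 6.66, the median of all named genes, and 10592 genes did. Of the dendritic cell markers, 8 of 9 passed, among them Itgax at 12.38 to 12.89, while Flt3 stayed below on every array. All 7 measured macrophage markers and all 4 measured monocyte markers passed as well. The macrophage markers had a median of 9.85 with NR4A3 siRNA and LPS, 9.43 with control siRNA and LPS, 10.67 with NR4A3 siRNA unstimulated and 9.73 with control siRNA unstimulated. Of 7 neutrophil markers S100a8 alone passed, and none of the B cell, T cell, NK cell, mast cell, eosinophil or erythroid markers did. In whole cultures, fewer cells of a type and less RNA per cell cannot be told apart.

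Of the 50 members, 47 passed this filter, all 5 immune genes and 42 others. The 3 below it on every array were Psmc3ip, known from meiotic recombination, the testis subunit Psma8 and the thymic cortex subunit Psmb11. Psma8 ranged from 5.29 to 5.47, Psmb11 from 5.40 to 5.54 and Psmc3ip from 6.04 to 6.23.

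Promoters of 42 members were held by RefSeq's annotation of the GRCm38.p6 assembly, each as 250 bases before and 50 bases after the gene's start. Those of the immune genes Psmb8, Psmb9 and Psme1 and of the standard subunits Psmb5 and Psmb6 are shown. The LPS differences of Psmb8 and Psmb9 are set against those of Psmb5 and Psmb6 below. Psmb7, the counterpart of Psmb10, was among 8 members without a window. Psmb8 (chr17:34197945-34198244, plus strand) is followed by its standard counterpart Psmb5 (chr14:54617946-54618245, minus strand). Psmb9 (chr17:34187281-34187580, minus strand) is followed by Psmb6 (chr11:70525107-70525406, plus strand), and Psme1 (chr14:55578244-55578543, plus strand) comes last. Capitals mark matches to the motifs described after the sequences, and all sequences run 5′ to 3′.
Psmb8 promoter: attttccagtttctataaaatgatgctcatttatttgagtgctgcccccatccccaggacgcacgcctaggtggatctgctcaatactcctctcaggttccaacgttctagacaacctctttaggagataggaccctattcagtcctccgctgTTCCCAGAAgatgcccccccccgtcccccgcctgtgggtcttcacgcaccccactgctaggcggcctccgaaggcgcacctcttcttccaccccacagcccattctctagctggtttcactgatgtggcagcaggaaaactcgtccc
Psmb5 promoter: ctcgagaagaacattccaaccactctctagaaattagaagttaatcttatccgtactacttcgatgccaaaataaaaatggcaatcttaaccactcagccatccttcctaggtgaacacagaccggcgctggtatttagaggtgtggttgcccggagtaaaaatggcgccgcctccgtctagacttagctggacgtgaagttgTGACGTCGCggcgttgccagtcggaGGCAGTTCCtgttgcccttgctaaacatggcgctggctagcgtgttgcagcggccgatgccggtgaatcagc
Psmb9 promoter: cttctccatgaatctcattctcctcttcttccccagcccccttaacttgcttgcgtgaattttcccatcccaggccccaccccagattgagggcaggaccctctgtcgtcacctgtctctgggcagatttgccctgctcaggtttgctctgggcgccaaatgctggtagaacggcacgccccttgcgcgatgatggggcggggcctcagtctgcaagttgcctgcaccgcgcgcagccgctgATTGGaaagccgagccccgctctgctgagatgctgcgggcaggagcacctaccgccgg
Psmb6 promoter: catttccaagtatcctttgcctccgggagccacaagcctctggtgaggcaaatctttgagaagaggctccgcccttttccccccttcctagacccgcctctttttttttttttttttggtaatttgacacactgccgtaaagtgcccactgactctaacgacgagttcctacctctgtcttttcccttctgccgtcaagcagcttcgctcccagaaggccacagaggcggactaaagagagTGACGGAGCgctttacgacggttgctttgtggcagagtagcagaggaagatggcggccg
Psme1 promoter: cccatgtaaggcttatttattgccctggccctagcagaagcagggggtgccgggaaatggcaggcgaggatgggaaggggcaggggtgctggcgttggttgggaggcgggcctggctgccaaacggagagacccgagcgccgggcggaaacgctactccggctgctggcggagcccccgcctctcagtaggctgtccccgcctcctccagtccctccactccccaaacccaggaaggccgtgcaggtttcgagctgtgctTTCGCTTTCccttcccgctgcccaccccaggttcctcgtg

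Each motif was searched on both strands, and no match overlapped one of another motif. A gene with several windows, such as Psme2 with 2, counted when any of them matched. Positions count from the gene's start and give the leftmost base of the match. TTCNNNGAA, the core of the site bound by STAT factors after interferon signals, was found in 9.55% of 27025 genes with a promoter window. Psmb8 was the only immune gene with it, as TTCCCAGAA at position -97, and 2 of 37 other members had it. GAAANNGAA, a pair of half-sites of interferon regulatory factors, was in 9.76% of all genes, in 6 of 37 other members and in 1 of 5 immune genes, Psme1, as TTCGCTTTC on the opposite strand at position 11.

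The NF-kB core GGNNNTTCC was in 20.7% of all genes, in 17 of 37 other members and in 0 of 5 immune genes. Psmb5 held it as GGCAGTTCC at position -22. TGACNNNGC, the antioxidant response element bound by factors of the Nfe2l family, was in 14.0% of all genes, in 6 of 37 other members and in 0 of 5 immune genes. Psmb5 held it as TGACGTCGC at position -47 and Psmb6 as TGACGGAGC at position -9. AAAGGTCA, the element to which NR4A receptors bind as monomers, was in 1.70% of all genes and in 0 of the 42 members with a window. The CCAAT box was in 41.1% of all genes, in 15 of 37 other members and in 1 of 5 immune genes, Psmb9, as ATTGG at position -8. A match is a description of these letters only, and a missing match says nothing of a factor. On chromosome 17 Psmb9 lies between H2-DMb1 and Tap1, and Psmb8 between Tap1 and Tap2. The windows of Psmb9 and Tap1 shared 275 bases, since the genes start 226 bases apart on opposite strands.

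All 5 immune genes were higher with LPS under either siRNA, each by at least 2-fold. Their median LPS difference was 1.48 (log2) with NR4A3 siRNA, a factor of 2.79, and 1.29 with control siRNA, a factor of 2.44. The medians of all 10592 genes were 0.02 and -0.02. That step of 2-fold upwards was reached by 5.24% of all genes under NR4A3 siRNA and 4.89% under control siRNA. With the quantile normalization repeated over the named genes, Psme1 fell short of it, at 0.89 (log2) with NR4A3 siRNA and 0.91 with control siRNA, as did Psmb8 with control siRNA, at 0.98. Under cyclic loess scaling Psme1 was just short of it with NR4A3 siRNA, at 0.99. Averaged over the siRNAs, all 5 rose in limma's additive fit, with adjusted p (Benjamini-Hochberg over all 10592 genes) between 0.00026 and 0.0018.

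Psmb9, which replaces the caspase-like subunit Psmb6, stood at 10.99 with LPS and 9.37 unstimulated under NR4A3 siRNA, and at 11.32 with LPS and 9.79 unstimulated under control siRNA. Both LPS arrays lay above both unstimulated arrays. The LPS differences were 3.08-fold and 2.89-fold with NR4A3 and control siRNA. Its average rise of 1.58 ± 0.10 (log2, SE of the fit) had the lowest adjusted p of the 47 members, 0.00026 in limma's fit with Benjamini-Hochberg adjustment.

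Psmb8, which replaces the chymotrypsin-like subunit Psmb5, had 11.18 with LPS and 9.56 unstimulated under NR4A3 siRNA, against 11.22 with LPS and 10.14 unstimulated under control siRNA. The LPS arrays nearly coincided, and the unstimulated arrays differed. LPS differences were therefore unequal, at 3.07-fold with NR4A3 siRNA and 2.12-fold with control siRNA. The average was a 2.55-fold rise (adjusted p 0.0018, limma with Benjamini-Hochberg), and the residual SD of 0.27 was the largest of the 47 members, ahead of Psmg4 at 0.18. In this fit the residual reflects the gap between the 2 LPS differences of a gene, from which array noise cannot be told apart.

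Psmb10, which replaces the trypsin-like subunit Psmb7, was at 11.66 with LPS and 10.25 unstimulated under NR4A3 siRNA, and at 11.46 with LPS and 10.17 unstimulated under control siRNA. Both LPS values were again above both unstimulated values. Its average rise was 2.55-fold (adjusted p 0.00047, limma with Benjamini-Hochberg).

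Psme1 and Psme2 encode the alpha and beta subunits of PA28, the ring that opens the core without ubiquitin. Psme1 read 11.63 with LPS and 10.61 unstimulated under NR4A3 siRNA, and 11.67 with LPS and 10.64 unstimulated under control siRNA. The siRNAs barely differed, and the LPS differences were 2.03-fold and 2.04-fold with NR4A3 and control siRNA. Psme2 read 12.80 with LPS and 11.32 unstimulated under NR4A3 siRNA, and 13.14 with LPS and 11.61 unstimulated under control siRNA. Here each LPS array lay above both unstimulated arrays and the control siRNA array was the higher of each state. Average rises were 2.04-fold for Psme1 (adjusted p 0.0010, limma with Benjamini-Hochberg) and 2.84-fold for Psme2 (adjusted p 0.00029, limma with Benjamini-Hochberg).

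**Figure D1:**
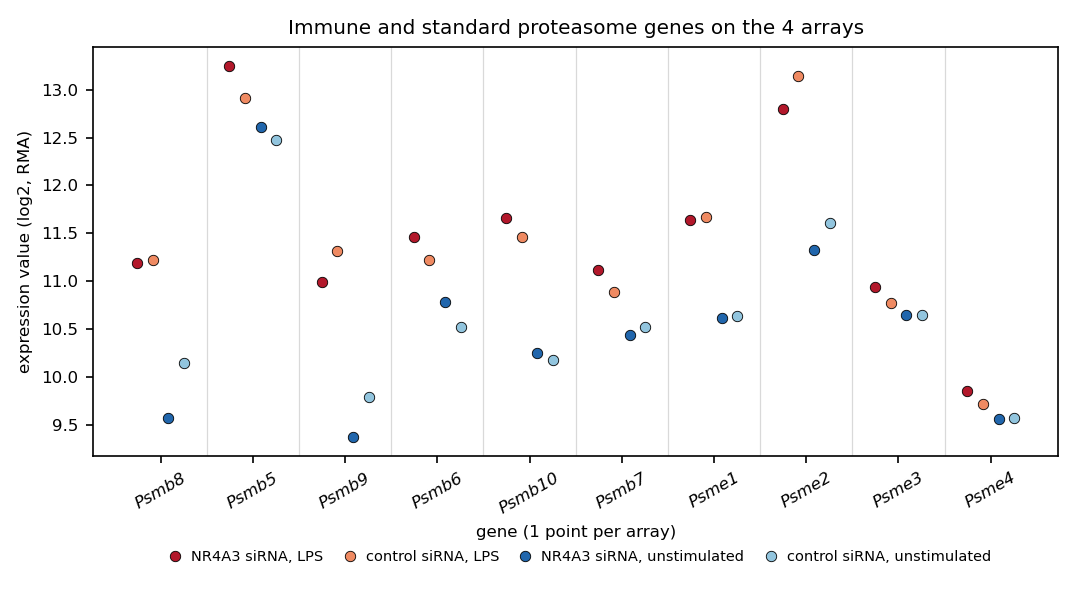
Expression values (log2, y axis) of 10 proteasome genes (x axis), 1 point for each of the 4 arrays, to be read within a gene since levels of different probe sets are not comparable. For Psmb8, Psmb9, Psmb10, Psme1 and Psme2 each LPS point stands 1.02 to 1.62 above the unstimulated point of the same siRNA, and for Psmb5, Psmb6 and Psmb7 0.37 to 0.70.

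The standard catalytic subunits were higher with LPS as well, by less. Psmb5 stood at 13.25 with LPS and 12.61 unstimulated under NR4A3 siRNA, and at 12.92 with LPS and 12.47 unstimulated under control siRNA. Psmb6 stood at 11.46 with LPS and 10.79 unstimulated under NR4A3 siRNA, and at 11.22 with LPS and 10.52 unstimulated under control siRNA. For both genes each LPS value exceeded both unstimulated values.

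Psmb7 stood at 11.11 with LPS and 10.43 unstimulated under NR4A3 siRNA, and at 10.89 with LPS and 10.51 unstimulated under control siRNA. Averaged over the siRNAs, limma's fit called all 3 higher, Psmb5 by 1.46-fold (adjusted p 0.013), Psmb6 by 1.61-fold (adjusted p 0.0044) and Psmb7 by 1.44-fold (adjusted p 0.021), after Benjamini-Hochberg adjustment. The LPS difference of the immune subunit was larger than that of the subunit it replaces in all 3 pairs under either siRNA. For Psmb8 over Psmb5 the ratio of their LPS folds was 1.96 with NR4A3 siRNA and 1.56 with control siRNA. Psmb9 over Psmb6 gave 1.92 with NR4A3 siRNA and 1.78 with control siRNA, and Psmb10 over Psmb7 gave 1.66 with NR4A3 siRNA and 1.89 with control siRNA. These ratios compare differences, not levels, and have no test.

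Other regulators of the core differed by less. Psme3, the nuclear PA28 gamma, had 10.94 with LPS and 10.65 unstimulated under NR4A3 siRNA, and 10.77 with LPS and 10.65 unstimulated under control siRNA. Psme4, the activator PA200, had 9.85 with LPS and 9.56 unstimulated under NR4A3 siRNA, and 9.72 with LPS and 9.57 unstimulated under control siRNA. Psmf1, the inhibitor PI31, had 10.47 with LPS and 10.17 unstimulated under NR4A3 siRNA, and 10.58 with LPS and 10.28 unstimulated under control siRNA. LPS values were the higher ones for all 3, by average factors of 1.15, 1.16 and 1.23, and none passed limma's fit (adjusted p 0.19, 0.16 and 0.068, Benjamini-Hochberg).

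Across the 42 other members past the filter, the median LPS difference was 0.45 with NR4A3 siRNA and 0.29 with control siRNA. Above 0 were 40 of them with NR4A3 siRNA and 38 with control siRNA, where 52.2% and 48.1% of all genes were. Higher by at least 1.5-fold were 11 of 42 with NR4A3 siRNA and 6 of 42 with control siRNA, where 10.3% and 10.0% of all genes were. Lower by at least 1.5-fold were 0 of 42 with either siRNA, where 6.84% and 9.35% of all genes were. With the quantile normalization repeated over the named genes, the count of 11 became 2 and the count of 6 became 4. Pearson's r between the LPS differences under the 2 siRNAs, which share no array, was 0.92 over the 47 members, and 0.89 over all genes. Over the 42 others without the immune genes it was 0.85.

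In limma's additive fit 20 of the 42 rose with LPS and 0 fell at an adjusted p under 0.05, where 15.6% of all genes rose and 14.4% fell. At an unadjusted p under 0.05, 34 of all 47 members were higher and 2 lower, namely Psmg1 and Psmg2, where 21.6% of all genes were higher and 20.3% lower. The smallest average that was called was 1.28-fold, for Psmc4 (adjusted p 0.048, Benjamini-Hochberg).

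**Figure D2:**
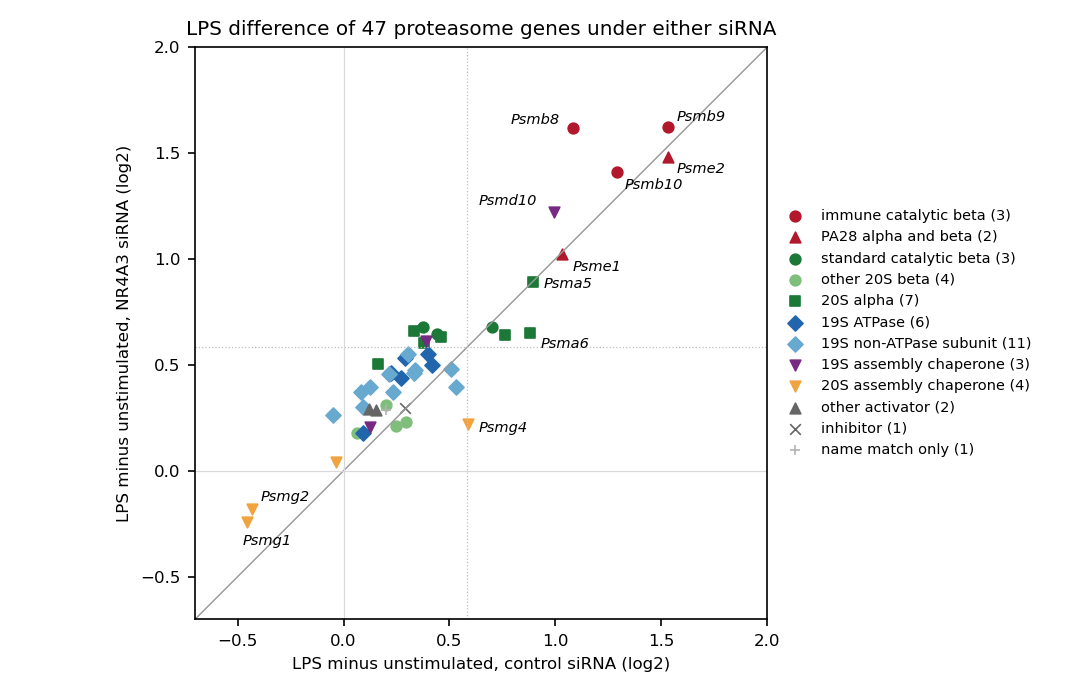
LPS minus unstimulated (log2) of the 47 proteasome genes past the filter, with control siRNA on the x axis and NR4A3 siRNA on the y axis, coloured by role. The dotted lines mark 1.5-fold and the diagonal marks equal differences. The 5 immune genes and Psmd10 stand apart at the upper right, most others lie between 0 and 0.90, and Psmg1 and Psmg2 are below 0 on both axes.

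Alpha subunits form the outer rings of the core and its gate. Limma's fit called 6 of 7 higher with LPS, all but Psma1, where 15.6% of all genes were higher and 14.4% lower. The 3 standard catalytic subunits were all called higher, and none of the 4 other beta subunits. Psma5 read 10.14 with LPS and 9.25 unstimulated under NR4A3 siRNA, and 10.07 with LPS and 9.17 unstimulated under control siRNA. LPS differences of 1.85-fold and 1.86-fold with NR4A3 and control siRNA were nearly equal, and the adjusted p was 0.0018 (limma with Benjamini-Hochberg). On another, dimmer probe set of Psma5 they were 1.91-fold with NR4A3 siRNA and 2.05-fold with control siRNA.

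Psma6 read 11.84 with LPS and 11.19 unstimulated under NR4A3 siRNA, and 12.10 with LPS and 11.22 unstimulated under control siRNA. Psma2 read 9.99 with LPS and 9.35 unstimulated under NR4A3 siRNA, and 9.91 with LPS and 9.14 unstimulated under control siRNA. On the values as deposited, both were at least 1.5-fold higher with LPS under either siRNA. With the quantile normalization repeated, fewer of the other members reached that step, as counted above.

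The remaining called alpha subunits, on the deposited values, passed 1.5-fold under NR4A3 siRNA and fell short of it under control siRNA. Psma3 read 11.91 with LPS and 11.25 unstimulated under NR4A3 siRNA, and 11.65 with LPS and 11.32 unstimulated under control siRNA. Psma4 read 10.55 with LPS and 9.95 unstimulated under NR4A3 siRNA, and 10.25 with LPS and 9.87 unstimulated under control siRNA. Psma7 read 10.07 with LPS and 9.43 unstimulated under NR4A3 siRNA, and 9.94 with LPS and 9.48 unstimulated under control siRNA. All LPS values lay above all unstimulated values of the same gene, and whether the siRNAs differ was not tested. Average rises of Psma2, Psma3, Psma4, Psma6 and Psma7 ran from 1.41-fold for Psma4 to 1.70-fold for Psma6.

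The beta subunits without a cutting site, Psmb1, Psmb2, Psmb3 and Psmb4, had LPS differences of 0.18 to 0.31 with NR4A3 siRNA and 0.06 to 0.29 with control siRNA. None of these 4 passed limma's fit, where 15.6% of all genes were higher and 14.4% lower. Their averages ran from 0.12 for Psmb1 to 0.26 for Psmb2. A difference between these genes and the rest of the core was not tested.

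Of the 6 ATPases of the 19S base, which unfold substrates, 4 rose in limma's fit, and the averages of all 6 ran from 0.14 for Psmc3 to 0.47 for Psmc5. None reached 1.5-fold with either siRNA. Of 11 other 19S subunits, among them ubiquitin receptors and the lid, 5 rose, and averages ran from 0.11 for Psmd6 to 0.49 for Psmd11. None of the ATPases or these subunits fell in the fit, where 15.6% of all genes rose and 14.4% fell. The lid subunit Psmd6 had 10.14 with LPS and 9.88 unstimulated under NR4A3 siRNA, and 9.76 with LPS and 9.81 unstimulated under control siRNA. Its arrays with control siRNA were thus nearly level, and it was not called (adjusted p 0.53, limma with Benjamini-Hochberg).

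Psmd10, the chaperone gankyrin that helps assemble the 19S base, had the largest LPS difference outside the immune set. It read 11.52 with LPS and 10.30 unstimulated under NR4A3 siRNA, and 11.30 with LPS and 10.31 unstimulated under control siRNA. The unstimulated arrays coincided and both LPS arrays were higher, by 2.33-fold and 1.99-fold. Its average rise of 2.15-fold (adjusted p 0.0012, limma with Benjamini-Hochberg) exceeded that of the immune gene Psme1.

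Of the other chaperones of the base, Psmd5 read 9.64 with LPS and 9.03 unstimulated under NR4A3 siRNA, and 9.42 with LPS and 9.03 unstimulated under control siRNA. It rose by 1.42-fold on average (adjusted p 0.018, limma with Benjamini-Hochberg). Psmd9 was not called, with an average of 0.17.

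Of the 4 chaperones of the 20S core none was called with LPS in limma's fit, and they differed in sign. With 15.6% of all genes called higher and 14.4% lower, 4 genes are too few to set them apart. Psmg1 and Psmg2, which act as a pair in building the alpha ring, were the only members with LPS below unstimulated under both siRNAs. Psmg1 had 8.33 with LPS and 8.57 unstimulated under NR4A3 siRNA, and 7.78 with LPS and 8.24 unstimulated under control siRNA. Psmg2 had 8.28 with LPS and 8.47 unstimulated under NR4A3 siRNA, and 7.77 with LPS and 8.20 unstimulated under control siRNA. In both genes the array with control siRNA and LPS was the lowest of the 4.

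Their average LPS differences of -0.35 and -0.31 missed limma's threshold (adjusted p 0.056 for Psmg1 and 0.087 for Psmg2, Benjamini-Hochberg). Both passed when the quantile normalization was repeated, and Psmg1 also with the mean of probe sets or a variance trend. Psmg4, a partner of Psmg3 in the same step, had 8.67 with LPS and 8.44 unstimulated under NR4A3 siRNA, and 9.22 with LPS and 8.63 unstimulated under control siRNA. Its control siRNA array with LPS was the highest, opposite to Psmg1 and Psmg2, and its average LPS difference of 0.40 also missed the threshold (adjusted p 0.055, limma with Benjamini-Hochberg). Psmg3 ran from 6.50 to 6.74 on the 4 arrays, close to the filter, with an average LPS difference of 0.00.

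**Figure D3:**
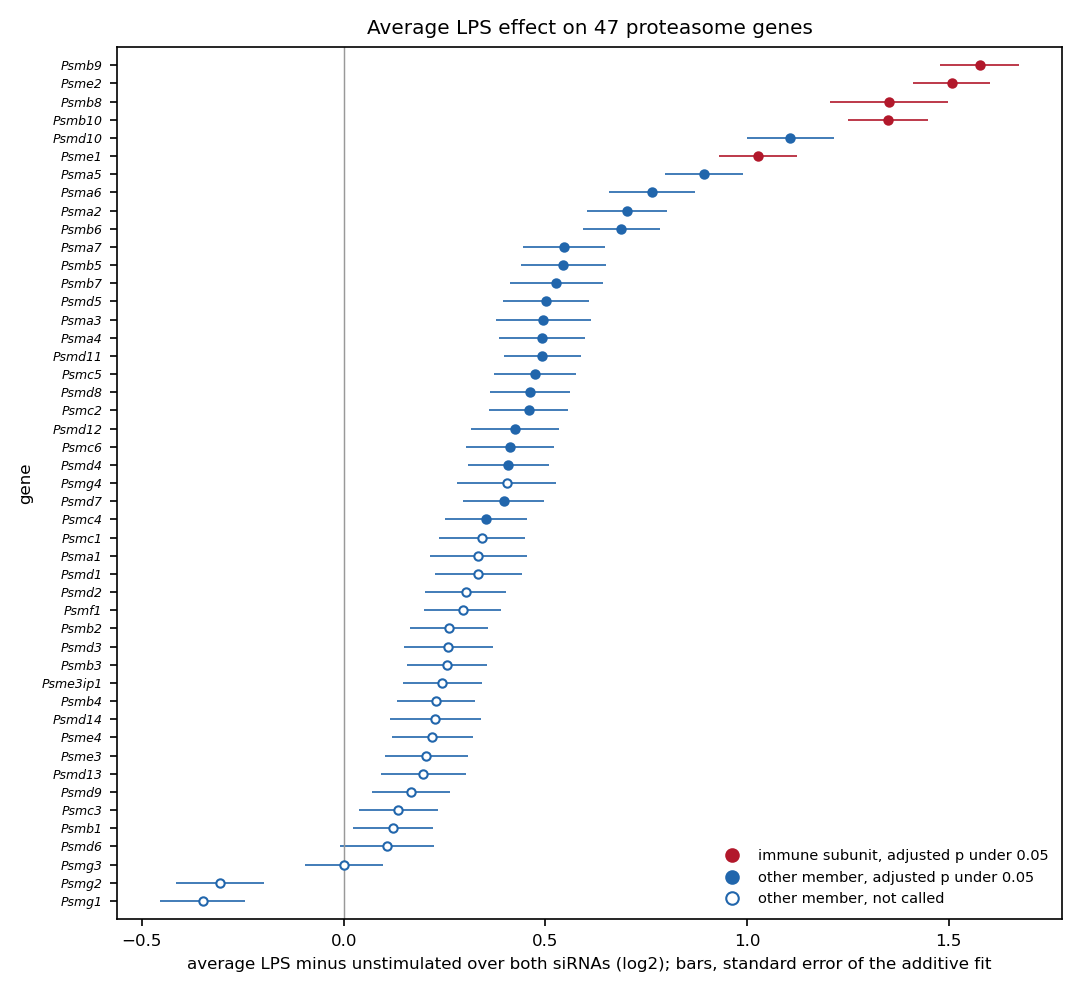
Average LPS minus unstimulated difference over both siRNAs (log2, x axis) for the 47 proteasome genes past the filter (y axis), with bars for the standard error of limma's additive fit. Filled points have an adjusted p under 0.05. The immune genes (red) run from 1.03 to 1.58, 20 other members (filled blue) from 0.35 to 1.11, and Psmg1 is lowest at -0.35.

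On the values as deposited, no member differed by 1.5-fold between NR4A3 siRNA and control siRNA in either state. With LPS, 0 of 47 were higher and 0 lower by that much, where 3.67% and 4.62% of all genes were. Unstimulated, 0 were higher and 0 lower, where 1.57% and 4.70% of all genes were. In limma's additive fit 0 of 47 were called higher and 0 lower at an adjusted p under 0.05, where 1.98% and 3.58% of all genes were. At an unadjusted p under 0.05, 5 of 47 members were higher and 5 lower, where 14.8% of all genes were higher and 11.4% lower, so these counts do not set the members apart. A missed threshold on 4 arrays does not show that levels were equal.

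The 5 immune genes had a median siRNA difference of -0.04 with LPS and -0.29 unstimulated, and 4 of 5 were lower with NR4A3 siRNA in both states, Psmb10 being the exception. The 42 others had a median of 0.21 with LPS and 0.05 unstimulated, with 35 and 29 of them above 0. For all genes the medians were 0.05 with LPS and 0.02 unstimulated, and 57.9% and 53.5% of them were above 0. Over the scalings tried, the immune medians ran from -0.10 to -0.04 with LPS and from -0.31 to -0.29 unstimulated, and those of the others from 0.15 to 0.21 with LPS and from 0.04 to 0.06 unstimulated.

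Psmb8 had the lowest member difference in unstimulated cells, 9.56 with NR4A3 siRNA against 10.14 with control siRNA, a factor of 0.671 that falls just short of 1.5-fold lower. It passed that threshold under cyclic loess scaling. With LPS its values were 11.18 with NR4A3 siRNA and 11.22 with control siRNA. The same unstimulated arrays enter its LPS differences. Psmb9 had siRNA differences of -0.33 with LPS and -0.42 unstimulated, with the lowest adjusted p of the immune genes, 0.087 (limma, Benjamini-Hochberg). Psme2 had -0.34 with LPS and -0.29 unstimulated (adjusted p 0.12, limma with Benjamini-Hochberg), and Psme1 had -0.04 and -0.03. Psmb10 alone was on the higher side, with 0.20 with LPS and 0.08 unstimulated.

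Markers of cell types differed beside these values. Of 7 macrophage markers past the filter, 6 were higher with NR4A3 siRNA than with control siRNA in the LPS state, from -0.16 (log2) for Fcgr1 to 2.03 for C1qb, and 7 in the unstimulated state, from 0.04 for Fcgr1 to 1.22 for C1qc. Of 4 monocyte markers 3 were lower with NR4A3 siRNA in both states, from -1.26 for Plac8 to 0.36 for Ccr2 with LPS, and from -0.34 for Vcan to 0.00 for Ccr2 unstimulated.

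Of 8 dendritic cell markers, 6 were lower with NR4A3 siRNA in the LPS state, from -0.74 for Ccr7, a marker of maturation, to 0.20 for Itgax. Unstimulated, 4 were lower and 4 higher, from -3.53 for Ccr7 to 0.43 for Kmo. The part of cell makeup or maturation in the proteasome values was not tested.

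Psmg1 and Psmg2 were the highest members with NR4A3 siRNA and LPS, by 1.46-fold and 1.43-fold over control siRNA. They were also 1.26-fold and 1.20-fold higher in unstimulated cells. Averages were 0.44 and 0.39, and neither passed limma's fit (adjusted p 0.072 and 0.096, Benjamini-Hochberg). Psmg4 was the lowest member with LPS at -0.55, and at -0.19 unstimulated. With LPS it passed 1.5-fold lower under the repeated quantile normalization, at -0.60, and under cyclic loess scaling, at -0.62.

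Among 19S subunits Psmd2, a ubiquitin-binding scaffold of the base, read 11.24 with NR4A3 siRNA and 11.56 with control siRNA in the LPS state, and 10.87 with NR4A3 siRNA and 11.33 with control siRNA unstimulated. Its neighbour in the base, Psmd1, differed in the other direction, with 11.13 with NR4A3 siRNA and 10.73 with control siRNA in the LPS state, and 10.68 with NR4A3 siRNA and 10.52 with control siRNA unstimulated. Both signs were the same in each state. Neither was called (adjusted p 0.083 for Psmd2 and 0.18 for Psmd1, limma with Benjamini-Hochberg).

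In unstimulated cells the alpha subunit Psma1 was at 11.17 with NR4A3 siRNA and 11.58 with control siRNA, and the ATPase Psmc1 at 9.25 with NR4A3 siRNA and 9.65 with control siRNA. With LPS both genes were closer, Psma1 at 11.67 with NR4A3 siRNA and 11.75 with control siRNA, and Psmc1 at 9.71 with NR4A3 siRNA and 9.88 with control siRNA. Psmc1 has another probe set, on which the unstimulated difference was -0.22, against -0.40 on the brighter one, the largest disagreement among the 5 members with several probe sets. Over the 47 members, Pearson's r between the siRNA differences in the LPS and unstimulated states, which share no array, was 0.72, and 0.65 over all genes.

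**Figure D4:**
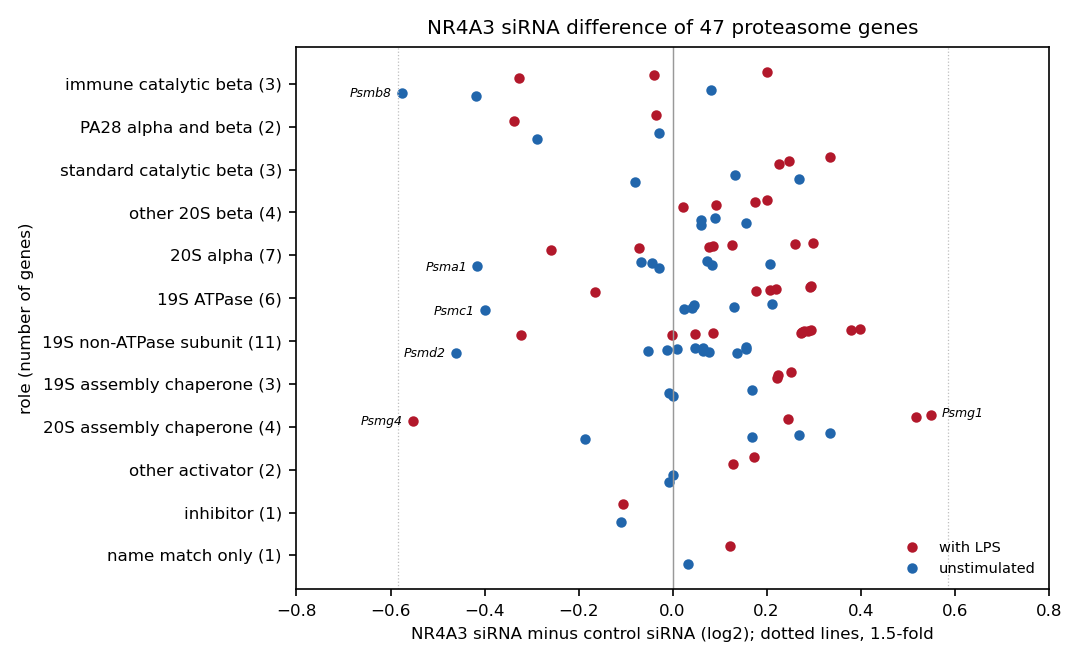
NR4A3 siRNA minus control siRNA (log2, x axis) for the 47 proteasome genes past the filter, 1 point per gene and state (red with LPS, blue unstimulated), by role (y axis). Dotted lines mark 1.5-fold. All points lie inside them, from -0.57 for unstimulated Psmb8 to 0.55 for Psmg1 with LPS.

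The LPS difference was larger with NR4A3 siRNA than with control siRNA in 36 of 47 members, or 76.6%, against 59.1% of all genes. The median of this difference of differences was 0.14 for members and 0.05 for all genes. Over the scalings tried the members' median ran from 0.10 to 0.14 and that of all genes from 0.00 to 0.05. Psmb8 had the highest value, 0.53, inside the central 95% of all genes (-0.53 to 0.61), and Psmg4 the lowest, -0.36. With 1 array a group there is no residual left to test any of these.

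Genes that work with the proteasome were read from 5 lists. Of 9 measured genes of MHC class I peptide loading, limma's fit called 5 higher with LPS and 0 lower, where 15.6% of all genes rose and 14.4% fell. Tap1, a peptide transporter subunit next to Psmb9, stood at 11.41 with LPS and 9.17 unstimulated under NR4A3 siRNA, and at 11.66 with LPS and 9.75 unstimulated under control siRNA. Its average rise was 2.07 (log2, adjusted p 0.00020, Benjamini-Hochberg), larger than that of any proteasome member. H2-Q4, a class I heavy chain, rose by 2.27, the tapasin relative Tapbpl by 1.69 and the other transporter subunit Tap2 by 1.18. With NR4A3 siRNA 0 of 9 were called in either direction, where 1.98% of all genes were higher and 3.58% lower. At these shares 9 genes are too few to set the list apart. Tap1 had an average siRNA difference of -0.42 (adjusted p 0.097, limma with Benjamini-Hochberg).

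Of 15 tested genes of interferon signalling and known regulators of the immune subunits, 11 rose with LPS and 1 fell in limma's fit. Of all genes 15.6% rose and 14.4% fell. The feedback inhibitor Socs1 rose by 2.44 (log2), the interferon transducer Stat2 by 2.09, the kinase Jak2 by 1.46 and Irf1, a transcription factor of immune subunit genes, by 1.12. Nlrc5, a transactivator of class I genes, rose by 0.43 and Ifngr1, a chain of the interferon-gamma receptor, fell by 1.34. Ifnb1 and Ifng, the interferon genes of the list, stayed below the filter on all arrays.

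The same fit called 3 of these 15 lower with NR4A3 siRNA and 0 higher, where 3.58% and 1.98% of all genes were. Named here because they are few, after their values were seen, they were the transcription factor Irf8 (2.30-fold lower with LPS and 2.01-fold lower unstimulated), Stat3 (fell by 0.86 on average, log2) and the interferon receptor kinase Tyk2 (fell by 0.62). Jak2 had 11.62 with LPS and 9.31 unstimulated under NR4A3 siRNA, and 11.99 with LPS and 11.38 unstimulated under control siRNA. Its array with NR4A3 siRNA unstimulated was the low one, and its average siRNA difference was not called (adjusted p 0.11, limma with Benjamini-Hochberg). H2-Q4 has near-identical relatives that could share its probes.

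Among 13 genes of proteasome assembly, cofactors and transcription, 2 rose with LPS and 1 fell in limma's fit, no more than the 15.6% and 14.4% of all genes would give. Pomp, the maturation factor of the core, had 10.02 with LPS and 9.48 unstimulated under NR4A3 siRNA, and 9.81 with LPS and 8.91 unstimulated under control siRNA. It rose by 0.72 on the log2 scale (adjusted p 0.0088, limma with Benjamini-Hochberg). Nfe2l1, the transcription factor that raises proteasome genes when the complex is blocked, rose by 0.46 (adjusted p 0.044, limma with Benjamini-Hochberg), and Akirin2, which carries proteasomes into the nucleus, fell by 0.35. Txnl1, a thioredoxin-like protein of the 19S cap, was at 0.37 and not called.

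Among 10 genes of ubiquitin, its relatives and shuttle factors, 3 rose and 0 fell, where 15.6% and 14.4% of all genes did. Those that rose were Uba7, the activating enzyme of ISG15, by 1.52, the autophagy receptor Sqstm1 by 0.68 and Nploc4, a cofactor of the unfoldase Vcp, by 0.49. Uba6, an activating enzyme of ubiquitin, was at 0.33 and not called. With NR4A3 siRNA Uba7 fell by 0.63 (adjusted p 0.038, limma with Benjamini-Hochberg). Of 8 peptidases that trim proteasome products, 1 rose and 2 fell, counts near the 15.6% and 14.4% of all genes. Erap1, which trims peptides in the endoplasmic reticulum, rose by 1.02, whereas Prep fell by 0.58 and Tpp2 fell by 0.37. Lap3, a cytosolic aminopeptidase, was at 0.18 and not called.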

How the data were processed

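The platform was the Affymetrix Mouse Gene 1.0 ST array, used for total RNA with 1 array per group, per the labels. The authors deposited log2 values from RMA, in which arrays were quantile-normalized, per the labels. Affymetrix Expression Console 1.1 is named in the submitters' processing notes, and GeneSpring in the design text. No build is named: not given in the sources used here, like any earlier filter.

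Of 28856 probe sets, 21789 had 1 gene symbol in the platform annotation, 1621 named several genes and 5446 none; only those with 1 were read. RefSeq's gene table held the gene identifier of 21698 of them, and 0 symbols changed. Pairwise comparisons are log2 differences of 2 arrays, counted at 1.5-fold or 2-fold with no test. The additive fit (limma 3.58.1, lmFit and eBayes, R 4.3.3) had terms for siRNA and LPS and 1 residual degree of freedom, with a prior of 4.76. The fit was run over 10592 genes with Benjamini-Hochberg adjustment at 0.05. Its 1 residual degree of freedom holds the difference of the LPS effects between the siRNAs and array noise together. The p-values cover only the spread among these arrays, which may be technical. Quantile normalization hides a shift of most genes in 1 direction.

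Members, gene lists, motifs and tests were chosen with earlier results of these data known. Values on all arrays are given for the 5 immune genes, Psmb5, Psmb6, Psmb7, Psme3, Psme4, Psmf1, members past 1.5-fold in any comparison, and the 3 highest and 3 lowest other members of each comparison. From each list up to 4 genes with the largest average LPS difference are named, plus Nr4a3, Tap1, Pomp, Nfe2l1, Irf1 and Nlrc5. Another gene of this rule is not reported here. Alternatives were 3 scalings, a looser (1.25) and a stricter (2) fold threshold, no filter or a stricter filter (75th percentile), averaging all probe sets of a gene, other variance priors, and leaving out name matches and tissue-restricted genes.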

Additional observations from a re-analysis of the deposited data

Results flagged for a closer look

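In 10 members the direction of an effect differed between the states or siRNAs, with 1 array on each side, so none of these differences was tested. For 8 of the 47 members past the filter the NR4A3 siRNA difference had opposite signs with LPS and unstimulated. The same held for 3110 of all 10592 genes, so such signs were no more frequent among members. The value with LPS minus the unstimulated value was 0.33 for Psma3, 0.17 for Psma7, 0.31 for Psmb7, 0.23 for Psmd10, 0.29 for Psmd14, 0.14 for Psmd4, 0.14 for Psme4 and -0.14 for Psmd8. In 7 of the 8 the sign was positive with LPS and negative unstimulated, with unstimulated values between -0.08 for Psmb7 and -0.01 for Psmd10. Psmd8 had 0.00 with LPS and 0.14 unstimulated.

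The LPS difference had opposite signs under the siRNAs in 2 of the 47 members, and in 2284 of all 10592 genes. For Psmd6 it was 0.26 with NR4A3 siRNA and -0.05 with control siRNA, a gap of 0.31. For Psmg3 it was 0.04 with NR4A3 siRNA and -0.04 with control siRNA, a gap of 0.077.

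The probe set annotated to both Psme2b and Psme2, outside the members' comparisons, read 11.70 with LPS and 10.14 unstimulated under NR4A3 siRNA, and 11.93 with LPS and 10.50 unstimulated under control siRNA. Its LPS differences were 1.56 with NR4A3 siRNA and 1.43 with control siRNA. Signal of the 2 genes cannot be told apart there.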

How the results depend on the processing

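The 5 immune genes were called higher with LPS in limma's additive fit under every alternative run, and 0 of 47 members were called for NR4A3 siRNA under any. The other members called higher with LPS ranged from 15 to 24, with 20 as reported. No value reversed among those called. Of 1296 values of single members under alternatives, 7 moved by more than the pooled residual SD of 0.15, all with the repeated quantile normalization, where Psmd14 with control siRNA went below 0, at -0.08. Many of the 1296 could not move, since the filter settings left such values as they were. Averaging probe sets could change only the 5 members with several. The largest shift of the median of all genes under any scaling was 0.062.

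With the repeated quantile normalization, other members at least 1.5-fold higher with LPS under NR4A3 siRNA numbered 2, those lower with NR4A3 siRNA and LPS numbered 1, and those lower with LPS in the additive fit 2 (Psmg1 and Psmg2). The mean of probe sets and the variance trend each called 1 lower with LPS, Psmg1. Cyclic loess put 1 other member (Psmg4) lower with NR4A3 siRNA and LPS and 1 immune gene (Psmb8) lower with NR4A3 siRNA unstimulated. At 2-fold, other members higher with LPS were 1 with NR4A3 siRNA and 0 with control siRNA, where 5.24% and 4.89% of all genes were. At the looser threshold other members higher with LPS were 26 with NR4A3 siRNA and 18 with control siRNA, and 2 were lower with control siRNA. For NR4A3 siRNA with LPS, the looser threshold gave 2 immune genes lower, 5 others higher and 2 others lower. Unstimulated, it gave 2 immune genes lower, 1 other higher and 3 others lower. The share of all genes at the looser threshold was not counted, so its counts cannot be set against a background. The cause was not tested for these changes, apart from the thresholds, which change the counts by construction. No paired analysis was possible because each group has 1 array, and for the same reason no array could be left out. Signals near the filter, such as Psmg3, are the least precise.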
